A study of Homo sapiens with 4 samples.

Results

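The expression of 10 human genes that move, store and sense iron was followed in cells kept in a magnetic field and in cells kept without one. The genes were TFRC, FTH1, FTL, ACO1, IREB2, SLC11A2, SLC40A1, NCOA4, STEAP3 and ISCA1, taken by name from the table of the whole series. All 10 were among its 26348 genes, and all 10 passed the filter on low values that left 13811 genes for testing. RNA sequencing covered 293T, a line derived from human embryonic kidney and labelled as renal epithelium, and A549, a line from a lung adenocarcinoma. Exposed cells of each line had spent 2 h in the field and control cells had received none, with 3 libraries in each of these 4 groups. No genetic change or drug distinguishes the groups per the labels, and its strength, frequency and source are not stated in the sources used here.

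Cells take up iron as the transferrin complex through the transferrin receptor TFRC, reduce it in the endosome with STEAP3 and move it to the cytosol with the divalent metal transporter SLC11A2 (DMT1). Surplus iron is stored in cages of the ferritin heavy and light chains, FTH1 and FTL, which the autophagy receptor NCOA4 delivers to lysosomes when iron is needed, and it leaves the cell through ferroportin, SLC40A1. The iron regulatory proteins ACO1 (IRP1) and IREB2 (IRP2) bind RNA hairpins called iron-responsive elements when iron is scarce, which shields TFRC mRNA from decay and holds back translation of ferritin and ferroportin mRNA. ISCA1 helps to assemble iron-sulfur clusters in mitochondria, and a relative of it has been proposed, with dispute, as a magnetic sensor.

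The hairpins are shown because they set apart the mRNAs that the iron regulatory proteins can bind. A search of GENCODE v29 protein-coding transcripts (GRCh38) looked on the transcript strand for an unpaired C, 5 paired bases, the loop CAGTGN with a last base other than G, and the 5 bases that pair back (G with U allowed). It found 7 sites in 4 of the 10 genes. Of 19684 protein-coding genes searched, 211 (1.07%) held at least 1 such match. Each stretch below has 29 bases, is written 5′ to 3′ on the mRNA strand and carries the 6 loop bases in capitals. An element that departs from the search pattern would be missed, also in a gene with sites. By this pattern TFRC has 4 sites in its 3′ UTR, all on the minus strand of chromosome 3. They lie at chr3:196050979-196051007, chr3:196050575-196050603, chr3:196050510-196050538 and chr3:196050463-196050491, in that order along the mRNA. FTH1 has 1 in its 5′ UTR at chr11:61967574-61967602 (minus strand), FTL has 1 in its 5′ UTR at chr19:48965335-48965363 (plus strand), and SLC40A1 has 1 in its 5′ UTR at chr2:189580661-189580689 (minus strand).
TFRC site 1: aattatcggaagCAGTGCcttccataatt
TFRC site 2: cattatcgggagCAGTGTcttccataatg
TFRC site 3: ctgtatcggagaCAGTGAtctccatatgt
TFRC site 4: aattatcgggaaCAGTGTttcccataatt
FTH1 site: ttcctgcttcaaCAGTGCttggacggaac
FTL site: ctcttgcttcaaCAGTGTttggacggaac
SLC40A1 site: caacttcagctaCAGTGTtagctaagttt

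The ferritin sites were identical at 26 of 29 bases. The 4 TFRC sites shared 18 to 25 bases with each other and 9 to 13 with the ferritin sites, and the SLC40A1 site shared 13 to 16 with the other 6. No match was found for ACO1, IREB2, SLC11A2, NCOA4, STEAP3 or ISCA1, which says only that this exact pattern is not in their GENCODE transcripts.

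Library size varied little, from 37171616 to 38883963 recovered counts, a ratio of 1.046. The sources used here do not say whether the 3 libraries of a group stem from separate cultures, so each p-value reflects the spread among these libraries alone, which may be technical. The summed level of 13 A549 markers, 12 of them listed, ran from 7590 to 8110 FPKM in A549 libraries and from 116 to 129 FPKM in 293T libraries. Among them the lung genes SFTPB and SFTPC were not listed or at 0 except for 1 count of SFTPC in 1 exposed A549 library. NKX2-1 reached at most 0.0111 FPKM in A549 and was higher in 293T, at 0.725 to 1.00 FPKM. The 9 markers of 293T summed to between 129 and 137 FPKM in 293T and between 37.8 and 39.6 FPKM in A549. Of these, the kidney gene PAX8 was at or near 0 in 293T and higher in A549, at 0.144 to 0.254 FPKM. Of 10 markers of erythroid cells, which carry much TFRC, 4 were listed. Of these, 0 reached 0.5 FPKM in any library, and their sum was at most 0.321 FPKM. ALAS2 was among the markers not listed, so it has no value here. The share of counts from 13 mitochondrially encoded genes was lower in exposed libraries, at 4.37% to 4.45% against 4.85% to 5.21% in 293T and at 7.69% to 7.96% against 8.35% to 9.28% in A549. With FPKM rescaled to the same sum without these genes, all exposure calls of the 10 genes held.

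In 293T cells the receptor gene TFRC fell 1.88-fold and the exporter gene SLC40A1 2.39-fold with exposure, SLC11A2, IREB2 and STEAP3 fell by smaller amounts, and FTL, FTH1 and NCOA4 rose by at most 1.19-fold. In A549 cells the ferritin genes rose and IREB2, SLC11A2, STEAP3 and narrowly SLC40A1 fell, while TFRC and NCOA4 were not called. In 293T 3 of the 10 genes rose and 5 fell, where 13.7% of all genes tested rose and 24.2% fell (limma, Benjamini-Hochberg adjusted p under 0.05 over all genes tested). In A549 2 rose and 4 fell, against 13.3% and 26.9% of all genes. The median log2 fold change of the 10 genes was -0.14 in 293T, beside -0.03 for all genes tested, and -0.06 in A549, beside -0.04. FTH1 and FTL rose in both lines, as 6.32% of all genes did, and IREB2, SLC11A2, SLC40A1 and STEAP3 fell in both, as 14.2% of all genes did. None of the 10 was called in opposite directions in the lines, a state reached by 1.11% of all genes.

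**Figure D1:**
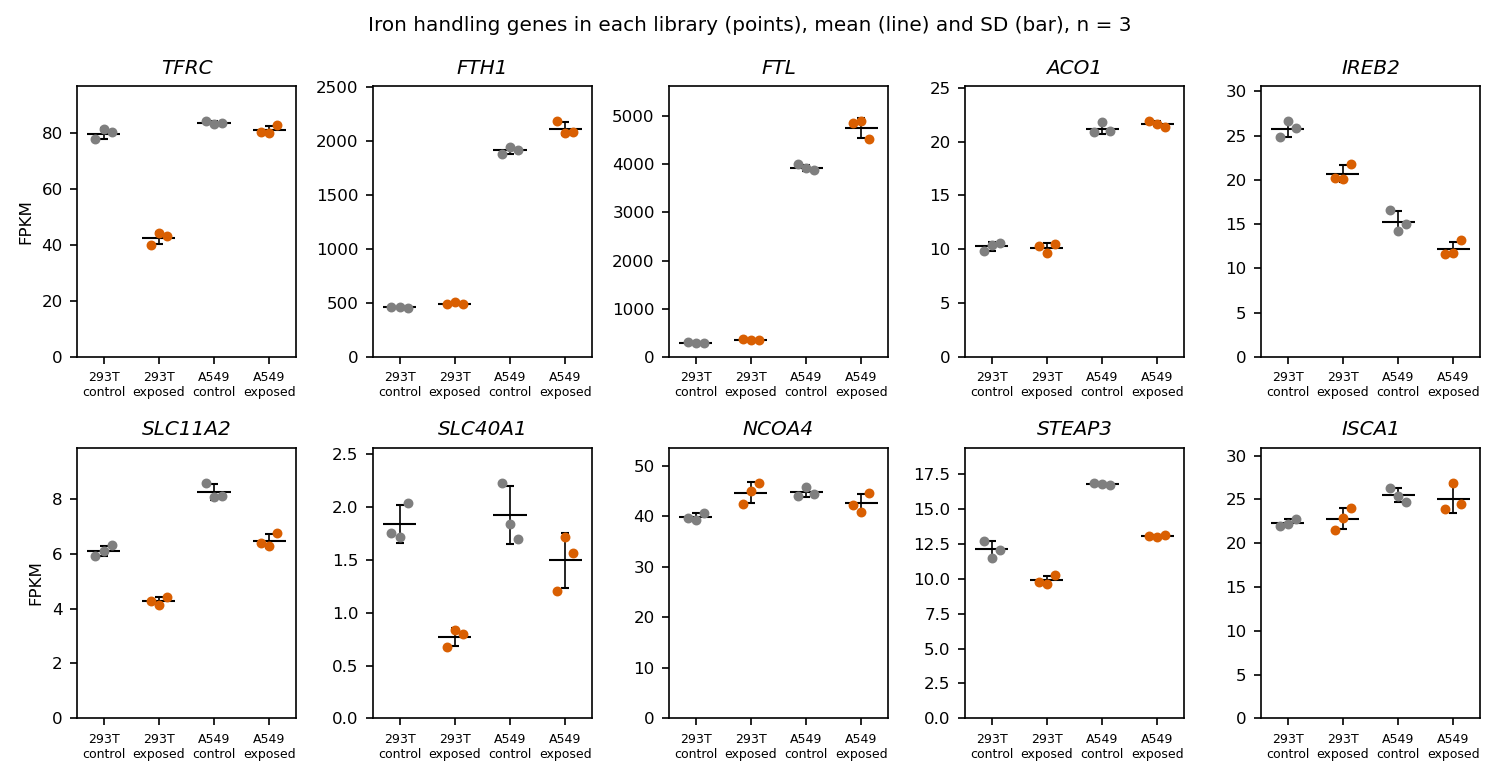
Level of each gene in FPKM (fragments scaled by gene length and library total, linear axis from 0) in the 12 libraries, with control libraries in grey, exposed libraries in orange, the group mean as a line and the SD as a bar (n = 3). TFRC sits near 80 FPKM in 3 groups and at 39.9 to 44.2 FPKM in exposed 293T, while FTL and FTH1 differ mainly between the lines.

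Uptake was covered by TFRC, STEAP3 and SLC11A2. TFRC (chromosome 3, 196049284 to 196082090, RefSeq on GRCh38.p14) stood at 77.6, 81.1 and 80.2 FPKM in control 293T libraries and at 39.9, 44.2 and 43.1 FPKM in exposed ones. Every exposed library lay far below every control. The means were 79.7 ± 1.80 and 42.4 ± 2.23 FPKM (SD, n = 3 each), which rested on 21961 to 23196 counts in controls and 10968 to 12588 in exposed libraries. The log2 fold change of -0.89 (95% interval -0.97 to -0.82, SE 0.04, adjusted p = 1.12e-07) was the 8th lowest of all 13811 genes tested. That rank is on log2(FPKM + 1), which understates changes at low levels, so it does not order genes by fold. SLC40A1, with a larger fall of 2.39-fold at a low level, ranked 42nd. In bulk RNA, fewer cells carrying a transcript and less of it per cell cannot be told apart.

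TFRC in A549 stood at 84.0, 83.2 and 83.5 FPKM in controls and at 80.2, 79.9 and 82.7 FPKM in exposed libraries. The groups did not overlap, but the gap between them was small. The log2 fold change of -0.05 (95% interval -0.12 to 0.03, adjusted p = 0.351) was not called. The exposure effect in A549 minus that in 293T was 0.85 on log2(FPKM + 1) (95% interval 0.74 to 0.96, SE 0.05, adjusted p = 6.35e-06). On that scale it was the 49th highest of 13811. That difference between the lines kept its call in all 22 alternative analyses, with values from 0.81 to 0.88. TFRC spans the small RNA pseudogene RNU7-18P, which was not listed in the table.

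STEAP3, the endosomal ferrireductase (chromosome 2, 119223834 to 119265652), fell in both lines. It stood at 12.7, 11.5 and 12.1 FPKM in control 293T and at 9.73, 9.64 and 10.3 FPKM in exposed 293T. In A549 it stood at 16.9, 16.8 and 16.7 FPKM in controls and at 13.1, 13.0 and 13.1 FPKM in exposed libraries. The groups were separate in each line, and the SD in A549 was at most 0.0851 FPKM. The log2 fold changes were -0.27 in 293T (SE 0.04, adjusted p = 3.87e-04) and -0.34 in A549 (SE 0.04, adjusted p = 5.15e-05). Their difference of -0.07 (95% interval -0.19 to 0.05, adjusted p = 0.439) was not called.

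SLC11A2, which carries iron out of the endosome (chromosome 12, 50952263 to 51028886), also fell in both lines. Its levels were 5.93, 6.09 and 6.31 FPKM in control 293T and 4.29, 4.14 and 4.42 FPKM in exposed 293T. In A549 they were 8.59, 8.06 and 8.10 FPKM in controls and 6.38, 6.27 and 6.75 FPKM in exposed libraries. No exposed library reached the lowest control of its line. The fall was 1.43-fold in 293T (log2 fold change -0.43, SE 0.04, adjusted p = 4.66e-05) and 1.28-fold in A549 (-0.31, SE 0.04, adjusted p = 1.69e-04). The exposure effects differed by 0.12 (95% interval -0.01 to 0.25, adjusted p = 0.229), which was not called. The values are per gene and do not tell apart the SLC11A2 transcripts with and without an iron-responsive element.

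Storage was covered by FTH1, FTL and NCOA4. FTH1, the ferroxidase chain (chromosome 11, 61964285 to 61967634), stood at 461, 459 and 454 FPKM in control 293T and at 486, 503 and 488 FPKM in exposed 293T. In A549 it stood at 1879, 1942 and 1911 FPKM in controls and at 2180, 2068 and 2085 FPKM in exposed libraries. All exposed libraries lay above all controls of their line. The rise was 1.08-fold in 293T (log2 fold change 0.10, SE 0.03, adjusted p = 0.00652) and 1.10-fold in A549 (0.14, SE 0.03, adjusted p = 7.77e-04). After quantile normalization the 293T value was 0.04 and no longer called (adjusted p = 0.243, in a range of 0.00285 to 0.243 over the alternatives). FTH1 overlaps BEST1 and LOC399900, which stayed at or under 0.29 FPKM.

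FTL, the light chain (chromosome 19, 48965309 to 48966879), had the larger rise of the ferritin genes. It stood at 303, 293 and 292 FPKM in control 293T and at 370, 347 and 340 FPKM in exposed 293T. In A549 it stood at 3997, 3920 and 3876 FPKM in controls and at 4863, 4892 and 4519 FPKM in exposed libraries. The groups were again separate in each line. FTL rose 1.19-fold in 293T (log2 fold change 0.25, SE 0.04, adjusted p = 3.56e-04) and 1.21-fold in A549 (0.27, SE 0.04, adjusted p = 1.19e-04). The exposure effects in A549 and 293T differed by 0.03 for FTL (95% interval -0.09 to 0.14) and by 0.04 for FTH1 (95% interval -0.04 to 0.12), and neither difference was called. Ferritin has processed copies elsewhere in the genome, and the sources used here do not say how reads matching several copies were counted. No row of the table was named as a ferritin or ISCA1 pseudogene.

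NCOA4, the receptor for ferritin autophagy (chromosome 10, 46005088 to 46030623), rose in 293T. It stood at 39.8, 39.3 and 40.7 FPKM in controls and at 42.5, 45.0 and 46.6 FPKM in exposed 293T, with no overlap (log2 fold change 0.16, SE 0.04, adjusted p = 0.00845). In A549 it stood at 44.0, 45.9 and 44.4 FPKM in controls and at 42.2, 40.9 and 44.6 FPKM in exposed libraries, where the groups overlapped. The A549 value of -0.07 (95% interval -0.16 to 0.02, adjusted p = 0.185) was not called. The exposure effect in A549 minus that in 293T was -0.23 (95% interval -0.35 to -0.11, SE 0.06, adjusted p = 0.0207). That call was lost in 2 of 22 alternatives, with the replicate number as a block (-0.23, adjusted p = 0.0554) and without replicate 2 of the 293T controls (-0.22, adjusted p = 0.0548), in a range of 0.00746 to 0.0554.

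Export was covered by ferroportin, SLC40A1 (chromosome 2, 189560590 to 189580786), the least abundant of the 10 genes. It stood at 1.75, 1.72 and 2.04 FPKM in control 293T and at 0.671, 0.834 and 0.800 FPKM in exposed 293T. The exposed libraries held 90 to 116 counts and the controls 240 to 282, with no overlap. The ratio of mean FPKM was 2.39-fold lower in exposed 293T, and the log2 fold change on log2(FPKM + 1), which understates changes at such low levels, was -0.68 (SE 0.09, adjusted p = 1.46e-04).

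SLC40A1 in A549 stood at 2.23, 1.84 and 1.70 FPKM in controls and at 1.21, 1.72 and 1.57 FPKM in exposed libraries, which overlapped. Its log2 fold change of -0.23 (SE 0.09, adjusted p = 0.0486) passed narrowly. It was lost in 16 of 23 alternatives, with an adjusted p between 0.0267 and 0.207 over all, and 9 of these fits had left out 1 library. Only leaving out replicate 3 of either control group or replicate 2 of exposed A549 kept the call among the 12 such fits. The exposure effect in A549 minus that in 293T was 0.45 (SE 0.12, adjusted p = 0.0294). It was lost in 8 of 22 alternatives (adjusted p from 0.0127 to 0.0847). These were the fit without a filter, the fit with the replicate block, and the fits without control 293T replicate 3, exposed 293T replicate 1, control A549 replicate 2 or 3, or exposed A549 replicate 2 or 3, with values from 0.39 to 0.54 over the fits that left out 1 library.

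The sensors differed from each other. IREB2, the iron regulatory protein that is degraded when iron is plentiful (chromosome 15, 78437431 to 78501453), stood at 24.9, 26.6 and 25.8 FPKM in control 293T and at 20.2, 20.1 and 21.8 FPKM in exposed 293T. In A549 it stood at 16.5, 14.2 and 15.1 FPKM in controls and at 11.6, 11.7 and 13.2 FPKM in exposed libraries. Exposed libraries were below all controls in each line. IREB2 fell by 0.30 on the log2 scale in 293T (SE 0.06, adjusted p = 0.00193) and by 0.30 in A549 (SE 0.06, adjusted p = 0.00153), and the difference between these effects was 0.00 (95% interval -0.18 to 0.18).

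ACO1, the iron regulatory protein that doubles as cytosolic aconitase when it holds an iron-sulfur cluster (chromosome 9, 32384643 to 32454769), was not called in either line. It stood at 9.81, 10.4 and 10.6 FPKM in control 293T and at 10.3, 9.62 and 10.4 FPKM in exposed 293T. In A549 it stood at 20.9, 21.8 and 20.9 FPKM in controls and at 21.9, 21.7 and 21.4 FPKM in exposed libraries. The groups overlapped in both lines. The 95% intervals of its log2 fold changes were -0.10 to 0.07 in 293T (adjusted p = 0.789) and -0.06 to 0.12 in A549 (adjusted p = 0.619).

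ISCA1, the mitochondrial iron-sulfur assembly protein (chromosome 9, 86264546 to 86282538), was likewise not called. Its mean was 22.8 ± 1.22 FPKM in exposed and 22.3 ± 0.411 FPKM in control 293T, and 25.1 ± 1.60 FPKM in exposed and 25.5 ± 0.790 FPKM in control A549 (SD, n = 3 each). The groups overlapped in both lines, and the 95% intervals of the log2 fold changes were -0.08 to 0.13 in 293T (adjusted p = 0.709) and -0.13 to 0.08 in A549 (adjusted p = 0.759).

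**Figure D2:**
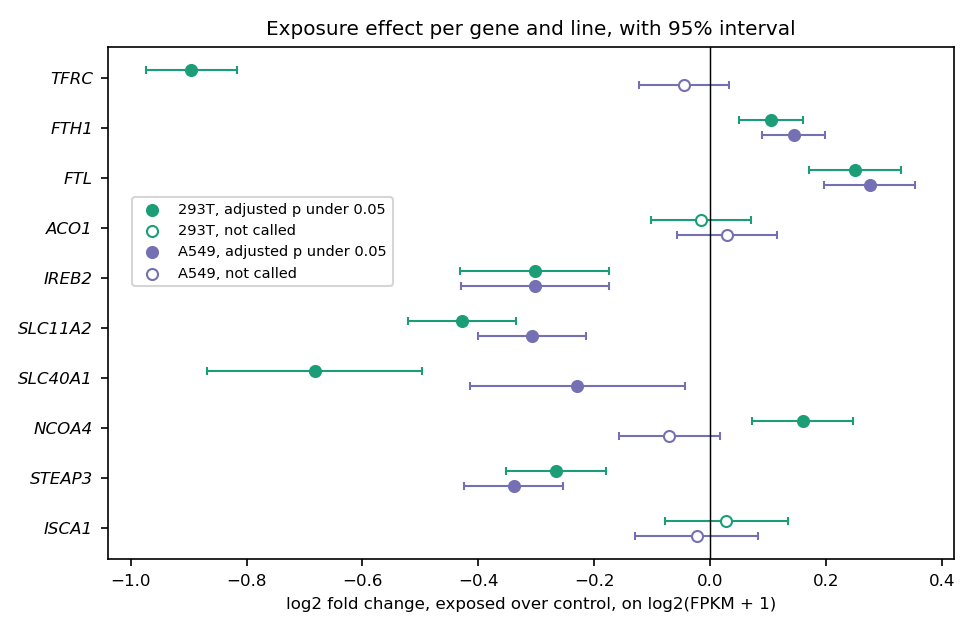
Log2 fold change of exposed over control on log2(FPKM + 1) for each gene, with its 95% interval from limma, in 293T (green) and A549 (purple), where filled points passed the adjusted p of 0.05 and open points did not. TFRC lies at -0.89 in 293T and at -0.05 in A549, while the points of FTL and of IREB2 nearly coincide between the lines.

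Of the 10 genes, 2 had an exposure effect called higher in A549 than in 293T, TFRC and SLC40A1, and 1 had it called lower, NCOA4, where 5.51% and 7.03% of all genes tested were called. The other 7 were not called. Among all genes, TFRC lay apart from the diagonal on which effects in the lines are equal, at -0.89 in 293T and -0.05 in A549. STEAP3, at -0.27 and -0.34, lay close to it.

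**Figure D3:**
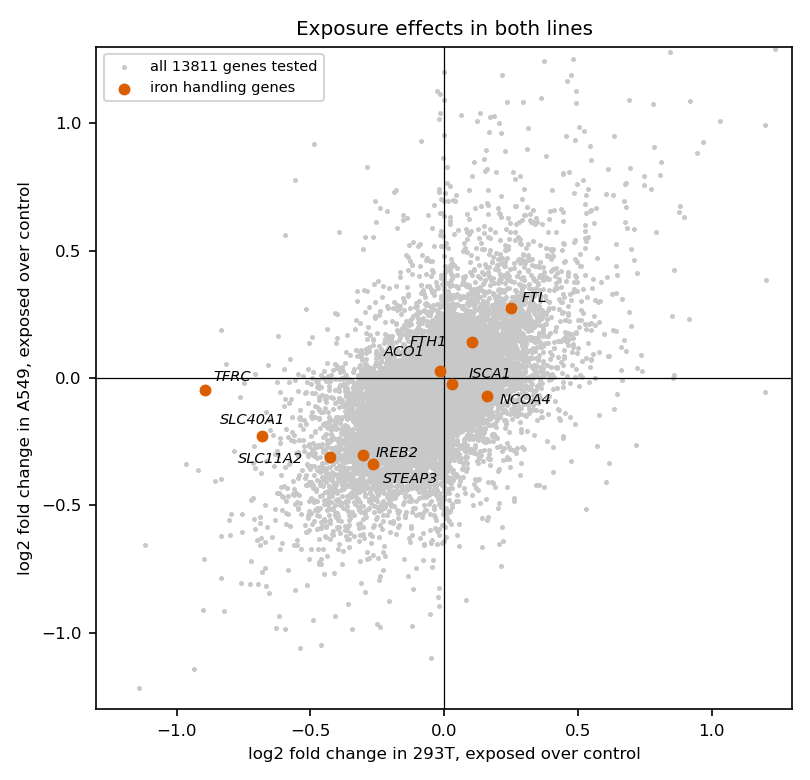
Log2 fold change in 293T (horizontal) against that in A549 (vertical) for all 13811 genes tested (grey) and the 10 iron handling genes (orange), with 36 genes outside the plotted range of -1.3 to 1.3. TFRC and SLC40A1 lie at the left, and FTL and FTH1 lie at the upper right.

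Ratios of FPKM within a library set genes against each other free of library scale. The ratio of TFRC to FTH1 mRNA was 0.169, 0.177 and 0.177 in control 293T and 0.0822, 0.0878 and 0.0884 in exposed 293T. It was thus lower in every exposed library, 2.02-fold by the mean of the log2 ratios (log2 difference -1.02). In A549 the same ratio was 0.0447, 0.0428 and 0.0437 in controls and 0.0368, 0.0386 and 0.0397 in exposed libraries, a log2 difference of -0.19 with no overlap.

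The ratio of FTH1 to FTL mRNA was lower in exposed libraries of both lines, at 1.40 ± 0.0749 against 1.55 ± 0.0252 in 293T and at 0.444 ± 0.0197 against 0.486 ± 0.0139 in A549 (SD, n = 3 each). The ratio of ACO1 to IREB2 mRNA was higher, at 0.490 ± 0.0180 against 0.398 ± 0.0108 in 293T and at 1.78 ± 0.137 against 1.40 ± 0.136 in A549. Exposed and control libraries did not overlap in any of these 6 comparisons. Each gave a two-sided exact permutation p of 0.1, the smallest that 3 against 3 libraries allow, and 0.1 after Benjamini-Hochberg adjustment over the 6.

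**Figure D4:**
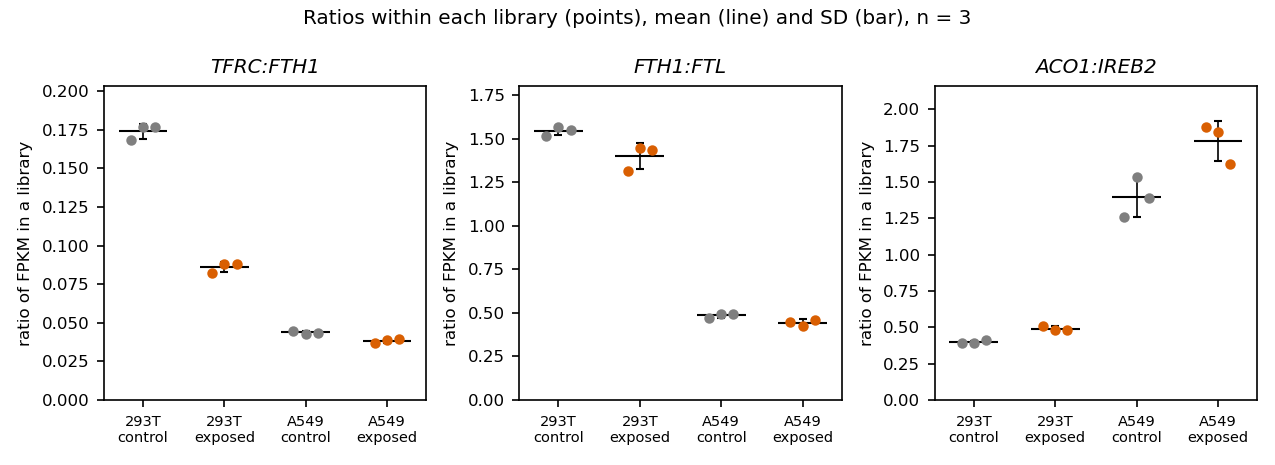
Ratio of the FPKM of paired genes in each library (linear axis from 0), with control libraries in grey, exposed libraries in orange, the mean as a line and the SD as a bar (n = 3). TFRC to FTH1 goes from 0.174 to 0.0861 in 293T and from 0.0437 to 0.0384 in A549, and ACO1 to IREB2 lies above 1 in A549 and below 1 in 293T.

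Without the field, the ferritin genes differed more between the lines than the other 8 of the 10 genes did. FTL averaged 3931 ± 61.6 FPKM in control A549 and 296 ± 6.35 FPKM in control 293T, 13.3-fold apart (log2 difference 3.73, SE 0.04, adjusted p = 4.72e-17). FTL was among the 10 highest genes of every A549 library and ranked between 127 and 146 in 293T libraries. FTH1 was 4.17-fold higher in A549 (1911 ± 31.2 against 458 ± 3.53 FPKM, adjusted p = 3.47e-16). FTL exceeded FTH1 in A549, and FTH1 exceeded FTL in 293T.

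ACO1 was 2.07-fold higher in control A549 (21.2 ± 0.501 against 10.3 ± 0.402 FPKM), and IREB2 was 1.69-fold lower (15.3 ± 1.19 against 25.8 ± 0.874 FPKM). STEAP3 (1.39-fold), SLC11A2 (1.35-fold), ISCA1 (1.14-fold) and NCOA4 (1.12-fold) were higher in A549. In all, 7 of the 10 genes were higher and 1 lower in control A549, where 32.4% and 55.9% of all genes tested were, and TFRC and SLC40A1 were not called. The median of all genes was -0.25 on this contrast, -0.15 after quantile normalization and -0.41 after rescaling to TPM, against a median of 0.28 for the 10 genes. The calls of ISCA1 and NCOA4 were lost after rescaling to TPM (adjusted p = 0.284 and 0.415), that of ISCA1 also with the replicate number as a block, and the ACO1, IREB2, FTH1, FTL, STEAP3 and SLC11A2 calls held in all 22 alternatives.

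TFRC was at 83.6 ± 0.422 FPKM in control A549 and 79.7 ± 1.80 FPKM in control 293T, a log2 difference of 0.07 (adjusted p = 0.0897). Its direction followed the scaling, at 0.17 after quantile normalization and -0.06 after rescaling to TPM. SLC40A1, at 1.92 ± 0.275 against 1.84 ± 0.178 FPKM, differed by less than the spread between libraries.

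The order of levels changed with exposure in 293T. In control 293T it ran from FTH1 over FTL, TFRC, NCOA4, IREB2, ISCA1, STEAP3, ACO1 and SLC11A2 to SLC40A1, and no neighbouring genes overlapped in FPKM. In exposed 293T the FPKM of TFRC (39.9 to 44.2) overlapped that of NCOA4 (42.5 to 46.6), although TFRC was nearly double NCOA4 in controls. IREB2 (20.1 to 21.8 FPKM) then also overlapped ISCA1 (21.6 to 24.0 FPKM), and STEAP3 (9.64 to 10.3 FPKM) overlapped ACO1 (9.62 to 10.4 FPKM). In A549 controls the order was FTL, FTH1, TFRC, NCOA4, ISCA1, ACO1, STEAP3, IREB2, SLC11A2 and SLC40A1. In exposed A549 it was the same, with STEAP3 (13.0 to 13.1 FPKM) now within the range of IREB2 (11.6 to 13.2 FPKM).

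Genes whose pattern over the 12 libraries was most like that of TFRC were found by the root mean square difference of log2(FPKM + 1) after centring each gene on its own mean, among 11639 genes with a mean of at least 1 FPKM. They were the zinc finger gene ZNF587B (0.107), METTL23 (0.160), the long non-coding ZFAND2A-DT (0.173), REEP4 (0.173) and CRISPLD1 (0.175). Unlike TFRC, each of them was called higher in control A549 than in control 293T, from 1.23-fold (ZNF587B) to 1.49-fold (ZFAND2A-DT). REEP4 also fell with exposure in A549 (log2 fold change -0.27, adjusted p = 4.07e-04), where TFRC was not called. ZNF587B went from 4.82 to 2.68 FPKM in 293T and from 5.91 to 5.30 FPKM in A549. METTL23 overlaps JMJD6, so its value is uncertain to that extent. Nearest to FTH1 were MTCL1 (0.0485), the myosin light chain gene MYL12A (0.0545) and the tropomyosin gene TPM4 (0.0563). MYL12A stood at 40.9 FPKM in control 293T and 160 FPKM in control A549. With exposure MTCL1 and TPM4 were not called in either line and MYL12A rose only in A549, whereas FTH1 rose in both. MTCL1 was 6.16-fold higher in control A549 than in control 293T, against 4.17-fold for FTH1.

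The wider iron system was examined with 9 lists that hold 109 further genes, of which 106 were in the table and 97 were tested. In 293T 14 of these rose and 28 fell, or 14.4% and 28.9%, and in A549 11 rose and 21 fell, or 11.3% and 21.6%. These shares were near those of all genes tested. The medians were -0.04 and -0.02, beside -0.03 and -0.04 for all genes. The exposure effect was called higher in A549 than in 293T for 5 of the 97 (5.15%) and lower for 3 (3.09%), beside 5.51% and 7.03% of all genes.

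**Figure D5:**
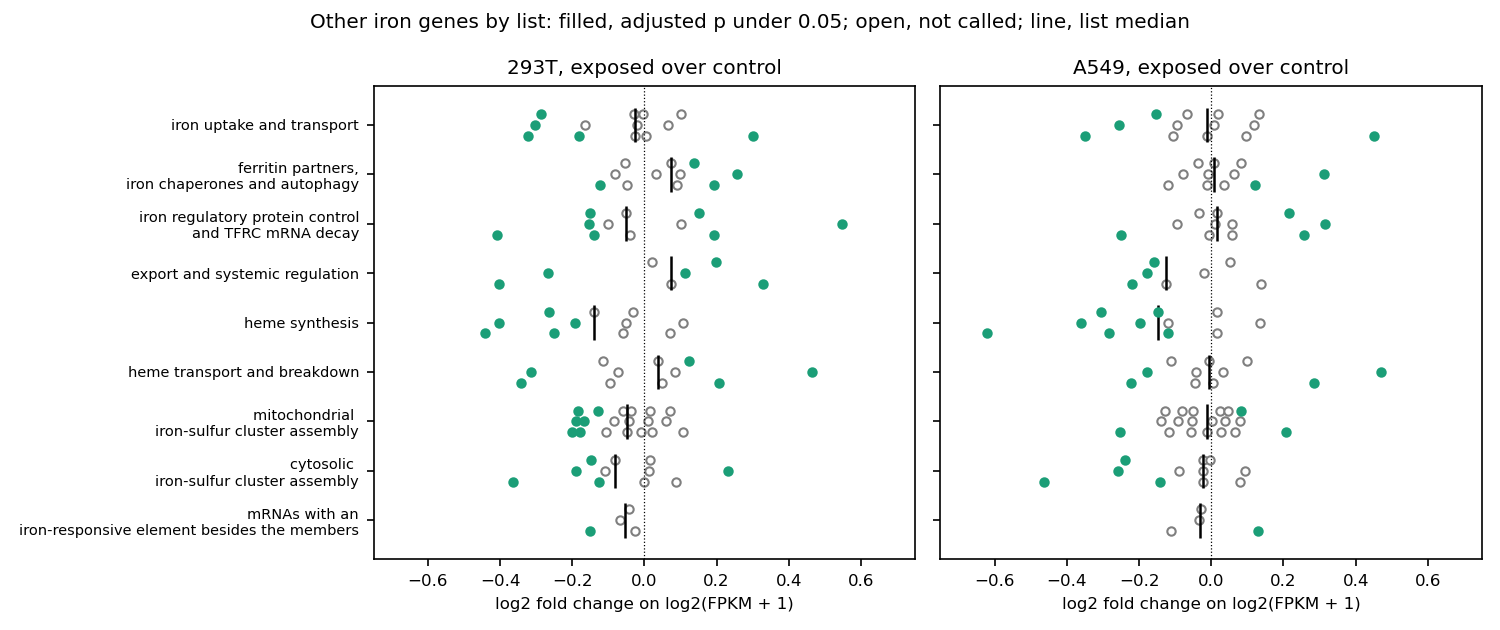
Log2 fold change of exposed over control for the tested genes of 9 iron gene lists in 293T (left) and A549 (right), with filled points past the adjusted p of 0.05, open points not called, and a vertical line at each list's median. No filled point of the heme synthesis list lies above 0 in either line.

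Of 13 tested genes of iron uptake and transport besides the 10, 1 rose and 4 fell in 293T, and 1 rose and 3 fell in A549. Over all genes tested, 13.7% rose and 24.2% fell in 293T, and 13.3% rose and 26.9% fell in A549. The gene that rose in each line was SLC39A14 (ZIP14), a carrier of iron that is not bound to transferrin. It went from 20.6 ± 0.623 to 25.6 ± 1.78 FPKM in 293T (log2 fold change 0.30, adjusted p = 0.00534) and from 29.4 ± 0.893 to 40.6 ± 4.67 FPKM in A549 (0.45, adjusted p = 3.48e-04). MCOLN1, a lysosomal cation channel, fell by 0.30 in 293T and by 0.15 in A549 on the log2 scale. STEAP1, a relative of STEAP3, fell by 0.32 in 293T and was at -0.07 in A549 (not called). The STEAP1 effects differed between the lines by 0.25 (adjusted p = 0.0265), a call lost in 7 of 22 alternatives (adjusted p up to 0.0985).

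Of 11 genes of iron regulatory protein control and TFRC mRNA decay, 3 rose and 4 fell in 293T, and 3 rose and 1 fell in A549. The shares of all genes that rose and fell were 13.7% and 24.2% in 293T, and 13.3% and 26.9% in A549. RC3H1 and RC3H2 encode the Roquin proteins, which bind stem-loops in mRNAs and promote their decay. RC3H1 stood at 3.30, 3.50 and 3.54 FPKM in control 293T and at 5.77, 5.59 and 5.16 FPKM in exposed 293T, a 1.60-fold rise (log2 fold change 0.55, adjusted p = 4.89e-05). In A549 RC3H1 rose from 3.06 ± 0.209 to 3.72 ± 0.234 FPKM (0.21, adjusted p = 0.00872), and the effect in A549 minus that in 293T was -0.33 (adjusted p = 0.0172, and 0.0734 with the replicate number as a block). RC3H2 rose by 0.19 in 293T and 0.31 in A549. HIF1A, a hypoxia factor that can activate TFRC transcription, fell by 0.14 in 293T and by 0.25 in A549 on the log2 scale. The HIF1A groups overlapped in 293T, and that call was lost in 12 of 23 alternatives (adjusted p up to 0.149).

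The same list holds ZC3H12A and FBXL5, which were named after their values were seen. ZC3H12A (regnase-1), an endonuclease known to cut TFRC mRNA, stood at 1.52, 1.27 and 1.50 FPKM in control 293T and at 0.730, 0.862 and 0.911 FPKM in exposed 293T (log2 fold change -0.41, adjusted p = 0.00423). In A549 it went from 12.7 ± 0.315 to 15.5 ± 2.69 FPKM (0.26, adjusted p = 0.0395), a call lost in 12 of 23 alternatives (adjusted p up to 0.133). The ZC3H12A effects differed between the lines by 0.66 (adjusted p = 0.00662). FBXL5, the iron-sensing ubiquitin ligase subunit that marks IREB2 for degradation, fell by 0.15 in 293T (adjusted p = 0.0131), a call lost without control replicate 2 or 3 of 293T (adjusted p up to 0.0539), and was at -0.10 in A549 (adjusted p = 0.0889).

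Of 11 tested ferritin partners, iron chaperones and autophagy genes, 3 rose and 1 fell in 293T and 2 rose in A549. Among all genes tested, 13.7% rose and 24.2% fell in 293T, and 13.3% rose and 26.9% fell in A549. ATG5, needed to form autophagosomes, rose 1.21-fold in 293T (adjusted p = 2.93e-04) and 1.27-fold in A549 (adjusted p = 5.29e-05). ATG16L1, its partner, rose by 0.19 in 293T and by 0.12 in A549, where the call was lost in 12 of 23 alternatives (adjusted p up to 0.174). TAX1BP1, an autophagy receptor that works with NCOA4, fell by 0.12 in 293T and was at 0.04 in A549 (not called). In the 7 tested genes of export and systemic regulation, 3 rose and 2 fell in 293T and 3 fell in A549, beside the same shares of all genes. BMP6, an inducer of hepcidin, fell by 0.27 in 293T (mean 2.56 to 1.96 FPKM) and by 0.22 in A549 (mean 1.44 to 1.09 FPKM). ERFE, the hormone erythroferrone, fell by 0.40 in 293T and was at 0.14 in A549 (not called), an effect that differed between the lines by 0.54 (adjusted p = 0.00301). The ferroxidase CP fell by 0.16 in A549 and was at or under 0.0622 FPKM in 293T.

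Of 11 heme synthesis genes tested, 0 were called higher and 5 fell in 293T, where 13.7% and 24.2% of all genes were called higher and lower. In A549 0 were called higher and 7 fell, where 13.3% and 26.9% of all genes were so called. The medians were -0.14 in 293T and -0.15 in A549, beside -0.03 and -0.04 for all genes. ALAS1, the rate-limiting enzyme of heme synthesis in most cells, went from 37.8 ± 1.18 to 28.4 ± 2.45 FPKM in 293T (log2 fold change -0.40, adjusted p = 1.53e-04) and from 25.3 ± 0.635 to 21.9 ± 0.430 FPKM in A549 (-0.20, adjusted p = 0.00848). CLPX, a mitochondrial chaperone that acts on ALAS proteins, fell by 0.44 in 293T and by 0.62 in A549. PPOX, an enzyme of the last steps, fell by 0.19 in 293T and by 0.36 in A549, and it overlaps B4GALT3.

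Heme transport and breakdown held rises and falls. Of 11 tested genes 3 rose and 2 fell in 293T, and 2 rose and 2 fell in A549. All genes tested rose in 13.7% and fell in 24.2% of cases in 293T, and in 13.3% and 26.9% in A549. FLVCR1, described as a heme exporter and choline transporter, rose 1.43-fold in 293T (adjusted p = 3.01e-05) and 1.25-fold in A549 (adjusted p = 2.74e-04). HMOX1, the heme oxygenase that frees iron from heme, stood at 46.2, 48.9 and 46.9 FPKM in control A549 and at 72.7, 66.0 and 59.7 FPKM in exposed A549 (log2 fold change 0.47, adjusted p = 1.11e-04). In 293T HMOX1 went from 33.4 ± 1.17 to 38.8 ± 2.05 FPKM (0.21, adjusted p = 0.0191), and the difference between the lines was not called (0.26, adjusted p = 0.0689). SLC48A1, a heme transporter of lysosomes, fell by 0.34 in 293T and was at -0.04 in A549 (not called), and it overlaps HDAC7. The difference of 0.30 for SLC48A1 (adjusted p = 0.0339) was lost in 9 of 22 alternatives (adjusted p up to 0.0771).

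Iron-sulfur cluster genes are the setting of ISCA1. Of all genes tested, 13.7% rose and 24.2% fell in 293T, and 13.3% rose and 26.9% fell in A549. Of 19 tested genes of mitochondrial assembly, 6 fell in 293T, and 2 rose and 1 fell in A549. ISCA2, the partner of ISCA1, fell by 0.18 in 293T and by 0.25 in A549. IBA57, which works with ISCA1 and ISCA2, fell by 0.20 in 293T (mean 4.82 to 4.06 FPKM). In A549 IBA57 was at -0.09 (mean 1.12 to 0.991 FPKM, not called), a lower level at which log2(FPKM + 1) understates changes more. The cysteine desulfurase NFS1 rose by 0.21 in A549 and was at 0.06 in 293T (not called). Of 11 tested genes of cytosolic assembly, 1 rose and 4 fell in 293T, and 4 fell in A549. The electron donors NDOR1 and CIAPIN1 fell in both lines, NDOR1 by 0.36 in 293T and 0.46 in A549, and CIAPIN1 by 0.19 and 0.26. CIAO3 of the same pathway fell by 0.15 and 0.24.

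Of 4 tested mRNAs with a described iron-responsive element besides the 10 genes, 1 fell in 293T and 1 rose in A549. Of all genes, 24.2% fell in 293T and 13.3% rose in A549. EPAS1 (HIF-2 alpha) fell by 0.15 in 293T and was at -0.03 in A549 (not called), and CDC42BPA rose by 0.13 in A549 and was at -0.03 in 293T (not called). The 26 list genes picked by rule had 43 calls over both lines, of which 32 held in all 23 alternatives. They were picked for the smallest adjusted p in these same data, so this share does not describe iron genes at large. The other 11 calls were lost under at least 1 alternative. They were those of CIAO3, HIF1A, HMOX1, ISCA2, PPOX and TAX1BP1 in 293T and those of ATG16L1, BMP6, CDC42BPA, CP and MCOLN1 in A549.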

How the data were processed

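Per the labels, total RNA was extracted with TRIzol, mRNA was selected with oligo(dT) beads and random-primed cDNA was sequenced in pairs. The submitters' processing notes name fastp, HISAT2, HTSeq and GRCh38; settings, versions and use of strand are not stated in the sources used here. The authors deposited FPKM, which are counts scaled by gene length and library total. Whole counts were recovered from them for 100% of genes (tolerance 0.01 counts) and used for depth and 1 alternative. Genes with at least 0.5 FPKM in at least 3 libraries were fitted as log2(FPKM + 1) in limma 3.58.1 under R 4.3.3, with a mean for each group, an intensity trend and 8 residual degrees of freedom, and p-values were two-sided and adjusted by Benjamini-Hochberg over all 13811 genes. Every adjusted p comes from that fit unless another setting is named. Each fold is a ratio of mean FPKM unless it is given on the log2 scale. Log2 fold changes of that fit are on log2(FPKM + 1), which understates changes of genes at low levels. Beyond the 10 genes, up to 3 genes per iron list with the smallest adjusted p in either line were named. The members and lists were chosen with earlier results of these data known. The fit was also run on simulated data with a fixed spread between libraries, which cannot vouch for the calls given here. Alternatives were quantile normalization, median centring, rescaling to TPM, pseudocount 0.1, filtering on a mean of 1 FPKM or not at all, a sum without mitochondrial genes, no intensity trend, each line alone (not between lines), the replicate block, limma-voom on recovered counts and leaving out each library. Without strand, reads of overlapping genes cannot be told apart: BMP6, CP, HIF1A, MTCL1 and FBXL5 also overlap a gene of at least 1 FPKM. Sequences came from GENCODE v29 and positions from RefSeq (GRCh38.p14).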

Additional observations from a re-analysis of the deposited data

Results flagged for a closer look

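For 3 of the 10 genes the exposure effect differed between the lines by the test of that difference (limma, adjusted over all genes tested). It was called higher in A549 for 2 and lower for 1, where 5.51% and 7.03% of all genes tested were so called. TFRC had an exposure effect 0.85 higher in A549 than in 293T on the log2 scale (SE 0.05, adjusted p = 6.35e-06). For SLC40A1 the value was 0.45 (SE 0.12, adjusted p = 0.0294), a call lost in 8 of 22 alternatives (adjusted p up to 0.0847). For NCOA4 it was -0.23 (SE 0.06, adjusted p = 0.0207), a call lost in 2 of 22 alternatives (adjusted p up to 0.0554).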

How the results depend on the processing

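Of 20 exposure results of the 10 genes, 18 stayed on the same side of the threshold in all 23 alternatives, the exceptions being FTH1 in 293T and SLC40A1 in A549, described with their values. Same-numbered libraries did not deviate together (r from -0.14 to 0.0001). Deviations from a mean of 3 libraries cancel out within a group, so this cannot exclude a pairing by replicate number. With the replicate number as a block, 1 of the 10 genes (main analysis 2) had a higher exposure effect in A549 than in 293T. A lower effect was called for 0 (main analysis 1). Of all genes, 472 were so called higher and 575 lower, against 761 and 971 in the main analysis. Without the filter 1 gene was higher. Over the 12 fits that left out 1 library these counts ran from 1 to 2 higher and 0 to 1 lower among the 10 genes, and the lower count of all genes ran from 637 (without control 293T replicate 2) to 1030. TFRC in control A549 against control 293T passed the threshold after quantile normalization (0.17), median centring (0.16), with limma-voom on recovered counts (0.068) and without exposed 293T replicate 1 (0.068), with values from 0.050 to 0.082 over the fits that left out 1 library. After quantile normalization the log2 difference of the TFRC to FTH1 ratio in 293T was -0.95 and that of FTH1 to FTL in A549 was -0.19. The cause of these shifts was not tested. Depth limits SLC40A1 most, with 90 to 313 counts per library.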
